A study of Mus musculus with 15 samples.

Results

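The 10 core clock genes Per1, Per2, Per3, Cry1, Cry2, Arntl, Clock, Nr1d1, Nr1d2 and Dbp were followed in RNA sequencing of the mouse thalamus after repeated cocaine or saline. They were chosen by name as the best-known parts of the circadian feedback loop, and all 10 were among the 13471 genes that passed the filter on low values, out of 25080 genes listed. In most cells, the transcription factors CLOCK and BMAL1 (the product of Arntl) bind E-box sequences and switch on their own inhibitors, the period and cryptochrome proteins, whose build-up and loss give a daily rhythm. CLOCK and BMAL1 also drive Nr1d1 and Nr1d2, whose products REV-ERB alpha and beta repress Arntl through ROR elements, and Dbp, an output transcription factor that binds D-boxes. In most rhythmic tissues Arntl therefore peaks when the E-box-driven genes are low, and the suprachiasmatic nucleus of the hypothalamus sets the phase of other brain regions.

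Control mice (Maged1 WT in the sample titles, floxed Maged1 without Cre in the study's methods) were compared with Maged1-cKO mice, in which the vGluT2 promoter drives the Cre that deletes a floxed Maged1 in glutamatergic neurons. Mice of 2 to 4 months were accustomed to saline injections over 3 days, after which cocaine (20 mg/kg) or further saline followed over 5 days, and the whole thalamus was dissected and lysed without sorting. Titles put 14 libraries into 4 groups, with 4 mice each for control after saline, control after cocaine and cKO after saline, and 2 for cKO after cocaine, while the last of the 15 samples, a cKO after cocaine, was not analysed here. The study's methods count more of the 15 samples with cocaine than with saline. The titles instead name 4 control and 3 cKO samples after cocaine, and 4 of each after saline. Treatment was taken from the titles. The study's methods place its locomotor sensitization experiments in the light period of a light/dark cycle. They give no interval between the last injection and collection for these libraries. Each mouse gave a single time point, and the hour of collection was not given in the sources used here. A change in level and a shift in daily phase therefore cannot be told apart. In a dissected tissue, fewer cells of a type and less RNA per cell cannot be told apart either.

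The values are TPM (transcript abundance corrected for transcript length and library total) divided by a trimmed-mean (TMM) factor for each library, called scaled TPM below, with no record of depth. The factor matters: it ran from 0.807 to 0.939 in the 6 cocaine libraries and from 1.07 to 1.22 in the 8 saline libraries, so that the median gene moved by -0.34 (log2) between cocaine and saline in the TPM as deposited and by 0.01 after scaling. After saline, Maged1 itself was at 149.9 to 167.2 scaled TPM in control and at 64.6 to 77.4 in cKO. After cocaine its levels went against the labels, with 58.5 to 87.7 in the libraries labelled control and 154 and 174 in those labelled cKO. For this reason cocaine libraries carry their label in the text (control-labelled, cKO-labelled). The main comparison averages cocaine against saline over both genotype labels, so that its value is the same if the labels of both cocaine groups are exchanged. Comparisons within a label do not have this property: with the labels exchanged, each would compare cocaine and saline libraries of different genotypes. The interaction would then measure a difference between genotypes and not a difference in the response to cocaine. For 4 saline libraries the genotype tag also names the other genotype than the title. The glutamatergic marker Slc17a6 (Vglut2) was at 69.3 to 103.8 scaled TPM in all libraries, and of the 7 markers of the suprachiasmatic nucleus, Vip, Six6, Prok2 and Nms did not exceed 0.402 and Lhx1 did not exceed 1.29. The other markers of that list were not near 0: Avp reached 74.0, and Rgs16, which is also a thalamus marker, was at 28.1 to 69.2 (0.37, SE 0.10, adjusted p = 0.0135, limma, for cocaine against saline). With the trends on GC content and length described below removed, Rgs16 was at 0.28 (adjusted p = 0.0603, limma). Under that setting it was at 0.57 in control and at 0 in cKO.

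In the libraries labelled control saline, a ladder of levels was seen among the clock genes. Dbp was highest with 30.6 ± 5.73 scaled TPM (SD, n = 4), followed by Nr1d1 with 26.8 ± 2.42, Cry2 with 25.2 ± 1.20 and Nr1d2 with 24.4 ± 1.69. These 4 overlapped with their neighbours in the order. Below them came Per1 (13.2 ± 0.978), Clock (9.70 ± 0.505), Arntl (7.29 ± 0.551), Cry1 (5.91 ± 0.0626), Per3 (5.17 ± 0.323) and Per2 (2.96 ± 0.146), without overlap between neighbours. Within each family a single paralogue dominated, Cry2 over Cry1 and Per1 over Per2 and Per3, whereas both REV-ERB genes were at similar levels.

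**Figure D1:**
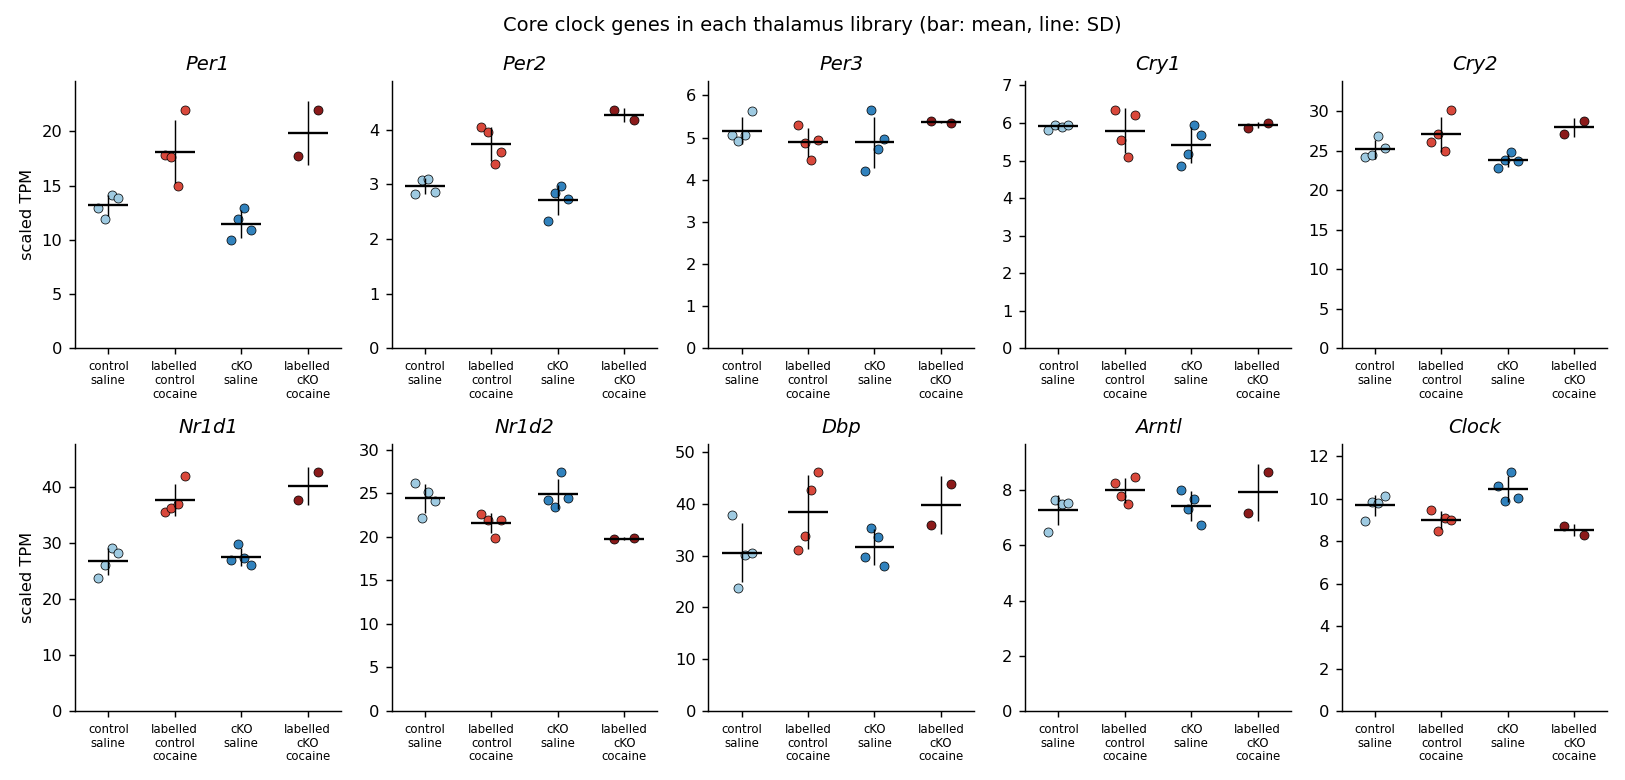
Scaled TPM (y axis, from 0) of each core clock gene in the 4 groups, with 1 point per library, the group mean as a bar and the SD as a line. For Per1, Per2 and Nr1d1 the 6 cocaine libraries lie above the 8 saline libraries, while for Per3 and Cry1 the cocaine and saline libraries overlap.

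Cocaine was accompanied by higher levels of 3 genes of the E-box-driven limb, Per1, Per2 and Nr1d1, in every cocaine library compared with every saline library. By limma's adjusted p alone, 5 of the 10 clock genes were higher (Per1, Per2, Nr1d1, Cry2 and Dbp) and 2 were lower (Clock and Nr1d2), against a background of 33.1% of all tested genes passing in either direction, 17.8% higher and 15.3% lower. With the study's fold minimum (a log2 change of 0.5 in either direction), Per1 and Nr1d1 were called higher and no clock gene lower, against 2.07% of all tested genes (1.05% higher and 1.02% lower). The calls depend on the scaling: in the TPM as deposited, where the median gene moved down, Clock and Nr1d2 were called lower instead. Under that scaling 2290 of the 13471 tested genes were called lower and 56 higher. Per1 was at 0.23 and still passed by adjusted p, Per2 (0.10) and Nr1d1 (0.14) did not, and Per3, Cry1, Cry2 and Arntl passed as lower. The share of all genes passing by adjusted p alone was not computed for the TPM as deposited. The 10 genes had a median log2 fold change of 0.13, compared with 0.01 over all tested genes. No overlap between cocaine and saline libraries, with cocaine above, was seen for 3 clock genes and for 5.95% of all tested genes, and with cocaine below for 0 clock genes and for 5% of all tested genes.

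**Figure D2:**
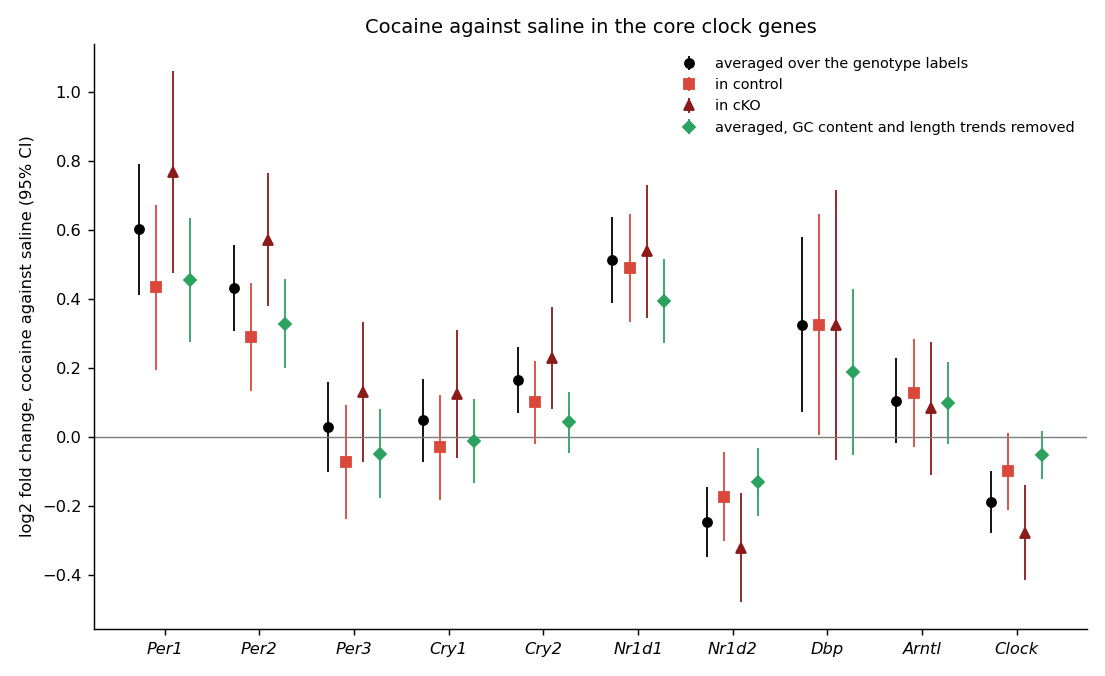
Log2 fold change of cocaine against saline (y axis) for each core clock gene, averaged over the genotype labels, in each genotype label, and averaged after trends with GC content and transcript length were removed. Points are estimates and lines 95% confidence intervals from limma. The intervals of Per1, Per2 and Nr1d1 lie above 0 in all 4 estimates.

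Per1 (chr11:69095217-69109960, plus strand, GRCm38) encodes the period protein best known for rapid induction by light, cyclic AMP and glucocorticoids. It was at 12.9, 11.9, 14.1 and 13.8 scaled TPM in control saline and at 9.96, 11.9, 12.9 and 10.9 in cKO saline. The control-labelled cocaine libraries had 17.8, 17.7, 15 and 22.0, and the cKO-labelled ones 17.8 and 21.9. The lowest cocaine library was thus above the highest saline library, and the averaged log2 fold change was 0.60 (SE 0.087, 1.52-fold, adjusted p = 0.00027, limma). RefSeq (GRCm38.p6) lists 2 starts for Per1, both inside the annotated gene span, and the 250 bases before each are shown because this gene had the largest rise of the family. Capitals mark an E-box (CACGTG) and the TGACG core of a cyclic AMP response element.
Per1 start 1, chr11:69098699-69098948 (plus strand): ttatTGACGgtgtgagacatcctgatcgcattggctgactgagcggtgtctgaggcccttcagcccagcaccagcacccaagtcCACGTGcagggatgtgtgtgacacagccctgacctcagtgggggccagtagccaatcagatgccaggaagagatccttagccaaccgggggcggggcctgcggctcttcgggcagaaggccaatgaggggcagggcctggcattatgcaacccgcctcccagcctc
Per1 start 2, chr11:69099902-69100151 (plus strand): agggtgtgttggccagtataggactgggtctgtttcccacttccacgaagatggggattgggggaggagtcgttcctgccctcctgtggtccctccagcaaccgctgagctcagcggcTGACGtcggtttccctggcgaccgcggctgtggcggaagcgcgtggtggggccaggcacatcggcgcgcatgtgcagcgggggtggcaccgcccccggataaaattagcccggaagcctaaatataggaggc

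Per2 (chr1:91415982-91459324, minus strand), the least abundant member, encodes a period protein required for a robust rhythm. It was at 2.82, 3.09, 3.09 and 2.86 scaled TPM in control saline and at 2.34, 2.84, 2.97 and 2.72 in cKO saline, compared with 4.04, 3.96, 3.37 and 3.59 in the control-labelled cocaine libraries and 4.36 and 4.18 in the cKO-labelled ones. Again the groups did not overlap, and the log2 fold change was 0.43 (SE 0.057, 1.35-fold, adjusted p = 0.00015, limma), under the fold minimum. Because 0.5 was added to each value before the log, the fold of this low gene is understated.

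Per3 (chr4:151003652-151044665, minus strand) is the period gene whose loss disturbs the rhythm least. It ran from 4.21 to 5.66 scaled TPM in the 8 saline libraries and from 4.46 to 5.39 in the 6 cocaine libraries, and these ranges overlapped. Its log2 fold change was 0.03 (SE 0.060, adjusted p = 0.756, limma), with a 95% interval from -0.10 to 0.16 that lies wholly below the intervals of Per1 and Per2. Its promoter is shown beside those of Per1 because it carries a different element, the D-box (TTATGTAA, in capitals), at 205 and 158 bases before the start.
Per3, chr4:151044666-151044915 (minus strand): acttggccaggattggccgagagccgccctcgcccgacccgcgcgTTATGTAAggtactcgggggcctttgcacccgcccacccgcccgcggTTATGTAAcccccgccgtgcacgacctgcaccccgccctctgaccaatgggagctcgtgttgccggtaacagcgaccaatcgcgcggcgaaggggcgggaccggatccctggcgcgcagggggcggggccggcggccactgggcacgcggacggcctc

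Nr1d1 (chr11:98767932-98775333, minus strand) encodes REV-ERB alpha, the repressor of Arntl. It rose from 23.7, 26.0, 29.1 and 28.3 scaled TPM in control saline to 35.6, 36.3, 37.0 and 42.0 in the control-labelled cocaine libraries, and from 26.9, 29.8, 27.3 and 26.1 in cKO saline to 37.7 and 42.6 in the cKO-labelled ones. No library of either treatment fell into the range of the other, and the log2 fold change of 0.51 (SE 0.057, 1.43-fold) had the smallest adjusted p of the family (4.62e-05, limma). Nr1d1 overlaps Thra on the opposite strand. The library kit marked strand, but the strand setting of the quantification was not given in the sources used here. Thra, a thyroid hormone receptor gene, was higher by 0.16 (SE 0.045, adjusted p = 0.0158, limma), with overlapping cocaine and saline libraries.

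Nr1d2 (chr14:18204054-18239127, minus strand) encodes REV-ERB beta, which shares targets with REV-ERB alpha. It moved in the opposite direction, from 26.2, 22.2, 25.1 and 24.2 scaled TPM in control saline to 22.6, 21.9, 19.9 and 21.9 in the control-labelled cocaine libraries, and from 24.3, 23.5, 27.4 and 24.5 in cKO saline to 19.7 and 19.9 in the cKO-labelled ones. A single cocaine library, the first labelled control, lay above the lowest saline library. The log2 fold change was -0.25 (SE 0.047, adjusted p = 0.00165, limma), a fall under the fold minimum. The paralogues' promoters are printed together since their transcripts moved apart. That of Nr1d1 holds an E-prime box (CACGTT, here on the other strand as AACGTG in capitals) 28 bases before the start, and none of the motifs searched matched in that of Nr1d2.
Nr1d1, chr11:98775378-98775627 (minus strand): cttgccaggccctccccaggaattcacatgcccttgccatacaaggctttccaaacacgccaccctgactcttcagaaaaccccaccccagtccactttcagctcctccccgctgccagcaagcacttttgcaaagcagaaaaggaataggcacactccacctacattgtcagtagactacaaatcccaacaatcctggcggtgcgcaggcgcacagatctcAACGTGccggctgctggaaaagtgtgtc
Nr1d2, chr14:18239107-18239356 (minus strand): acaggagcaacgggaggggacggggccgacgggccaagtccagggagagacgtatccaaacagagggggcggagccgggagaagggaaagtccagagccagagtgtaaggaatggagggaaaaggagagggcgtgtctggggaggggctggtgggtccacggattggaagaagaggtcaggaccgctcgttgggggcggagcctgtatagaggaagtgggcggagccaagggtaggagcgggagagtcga

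Cry1 and Cry2 encode the cryptochromes, the strongest repressors of CLOCK and BMAL1. Cry2 ran from 22.9 to 26.9 scaled TPM in the saline libraries and from 25.02 to 30.2 in the cocaine libraries, with a log2 fold change of 0.16 (SE 0.044, adjusted p = 0.0123, limma). Cry1 ran from 4.86 to 5.96 after saline and from 5.08 to 6.35 after cocaine, with a log2 fold change of 0.05 (95% interval -0.07 to 0.17, adjusted p = 0.553, limma). The ranges overlapped for both cryptochromes, and both estimates turned negative in the TPM as deposited.

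Dbp encodes a D-box-binding activator with one of the widest daily swings of all clock-driven transcripts. It was at 37.8, 23.7, 30.2 and 30.6 scaled TPM in control saline, 29.7, 35.4, 33.6 and 28.0 in cKO saline, 31.1, 33.7, 42.7 and 46.1 in the control-labelled cocaine libraries and 35.9 and 43.8 in the cKO-labelled ones. Its groups overlapped and its spread was the widest of the family, with an SE of 0.117. The log2 fold change of 0.33 only just passed (adjusted p = 0.0478, limma), and the call was lost in 17 of 27 alternatives, and the direction turned in 1, the TPM as deposited. Dbp overlaps Sphk2, a sphingosine kinase gene, on the opposite strand, which was at 5.57 to 7.22 scaled TPM.

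Arntl and Clock encode both partners of the activator. Arntl was at 6.47, 7.64, 7.51 and 7.55 scaled TPM in control saline and 8.01, 7.31, 7.68 and 6.75 in cKO saline, against 8.26, 7.77, 7.49 and 8.48 in the control-labelled cocaine libraries and 7.19 and 8.65 in the cKO-labelled ones. It did not fall where Nr1d1 rose: its log2 fold change was 0.10 (95% interval -0.02 to 0.23, adjusted p = 0.183, limma), and -0.26 in the TPM as deposited. Clock ran from 8.98 to 11.3 in the saline libraries and from 8.32 to 9.48 in the cocaine libraries, with a log2 fold change of -0.19 (SE 0.041, adjusted p = 0.00382, limma). The activator partners thus had estimates of opposite sign.

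Log2 ratios of clock genes were taken within each library, where the factor of a library largely cancels. Nr1d1 over Clock, Per1 over Clock and Dbp over Arntl set an E-box-driven gene against Arntl or Clock. The other ratios compare genes within a limb. Nr1d1 over Nr1d2 ran from 0.64 to 1.08 in the 6 cocaine libraries and from -0.14 to 0.34 in the 8 saline libraries, a shift of 0.76 compared with an SD of 0.15 within groups. Per1 over Per3 ran from 1.63 to 2.05 after cocaine and from 1.01 to 1.40 after saline, and Per2 over Per3 from -0.41 to -0.27 and from -0.88 to -0.59. Arntl over Clock also separated, from -0.26 to 0.05 after cocaine and from -0.54 to -0.35 after saline. Nr1d1 over Clock and Per1 over Clock shifted by 0.70 and 0.79, again without overlap. Cocaine above saline without overlap was seen in 4.37% of all ordered pairs of tested genes. The ratios use the same values as the fold changes above, and their pairs were picked by hand. Hence this share is a description, and the ratios are not separate support. Cry2 over Cry1 and Dbp over Arntl overlapped.

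**Figure D3:**
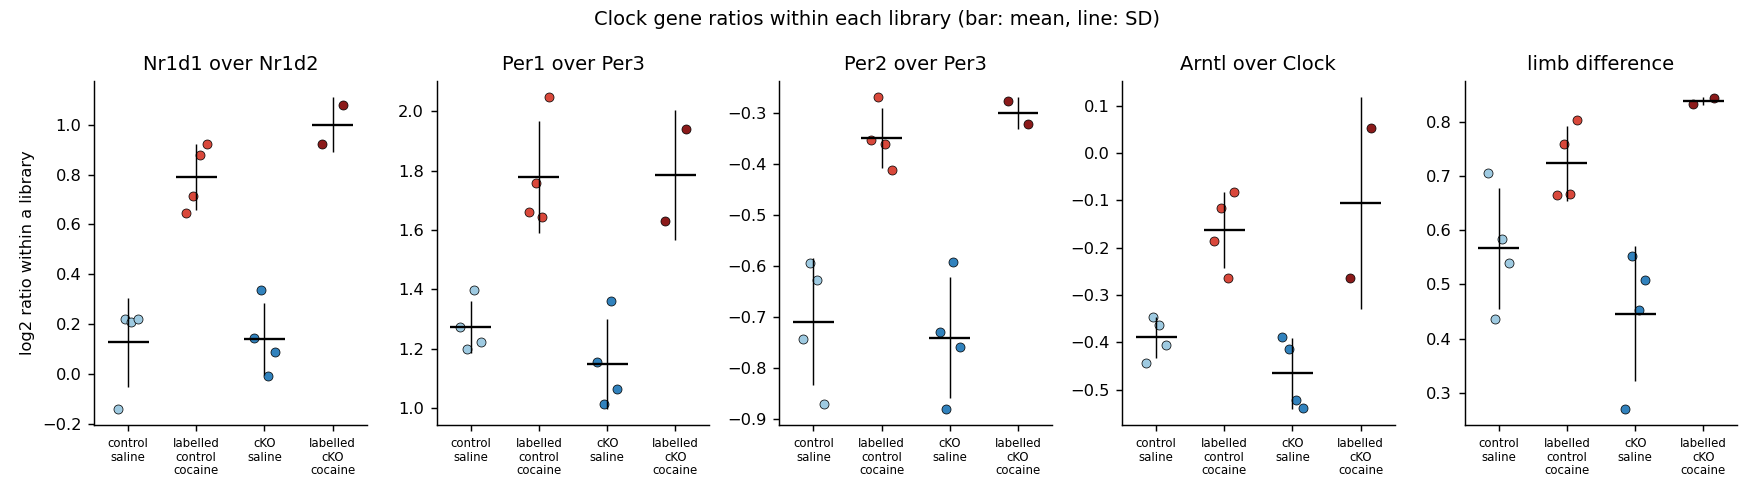
Log2 ratios (y axis) of clock genes within each library, by group, with 1 point per library, the mean as a bar and the SD as a line. The limb difference is the mean log2 value of the 8 E-box-driven genes less that of Arntl and Clock. Cocaine and saline libraries are separate in the first 4 panels and overlap in the limb difference, where 1 control saline library lies at 0.71.

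The limb difference, the mean of the 8 E-box-driven and inhibitory genes less the mean of Arntl and Clock, ran from 0.66 to 0.84 in the cocaine libraries and from 0.27 to 0.71 in the saline libraries. Its average shift was 0.28, with an SD of 0.099 within groups. Members of each limb diverged: Per1, Per2, Nr1d1, Cry2 and Dbp were higher and Nr1d2 lower in the E-box-driven limb, and Clock was lower in the activator limb. With the trends on GC content and length described below removed, the shift of the limb difference was 0.13. Against Arntl alone the shift was 0.13, and with Npas2 added to Arntl and Clock it was 0.16.

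A property of the libraries moved with treatment. Across the tested genes the log2 fold change rose with the GC content of the transcript (Spearman's rho 0.508 over genes, a description), from a median of -0.17 in the 10% of genes with the lowest GC content to 0.12 in the 10% with the highest. Per 10 points of GC content, values changed by 0.05 to 0.13 (log2) in the cocaine libraries and by -0.12 to -0.01 in the saline libraries, relative to the mean of all 14. Clock (40.9% GC) and Nr1d2 (41.8%) were the most AT-rich members, and Dbp (61.6%), Per1 (59.4%) and Nr1d1 (56.8%) the most GC-rich.

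With the trends on GC content and length removed, an alternative chosen after the data were seen, Per1 (0.45, SE 0.083, adjusted p = 0.00224, limma), Per2 (0.33, SE 0.060, adjusted p = 0.00223) and Nr1d1 (0.39, SE 0.056, adjusted p = 0.000427) remained higher. These 3 stood against 20.4% of all genes so tested passing by adjusted p, 10.8% higher. Clock was at -0.05 (adjusted p = 0.282), Nr1d2 at -0.13 (0.058), Cry2 at 0.04 (0.506) and Dbp at 0.19 (0.262), none of which passed, and 0 members met the fold minimum with limma's adjusted p, against 1.53% of all genes. For Per2 and Nr1d1 the cocaine libraries still lay above the saline range, as for 4.35% of all genes, whereas Per1 then overlapped. Nr1d1 over Nr1d2 and both ratios to Per3 stayed separate, with shifts of 0.53 for Nr1d1 over Nr1d2, 0.50 for Per1 over Per3 and 0.38 for Per2 over Per3, and so did Nr1d1 over Clock, with a shift reduced to 0.45. Arntl over Clock and Per1 over Clock then overlapped, with shifts of 0.15 and 0.51.

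**Figure D4:**
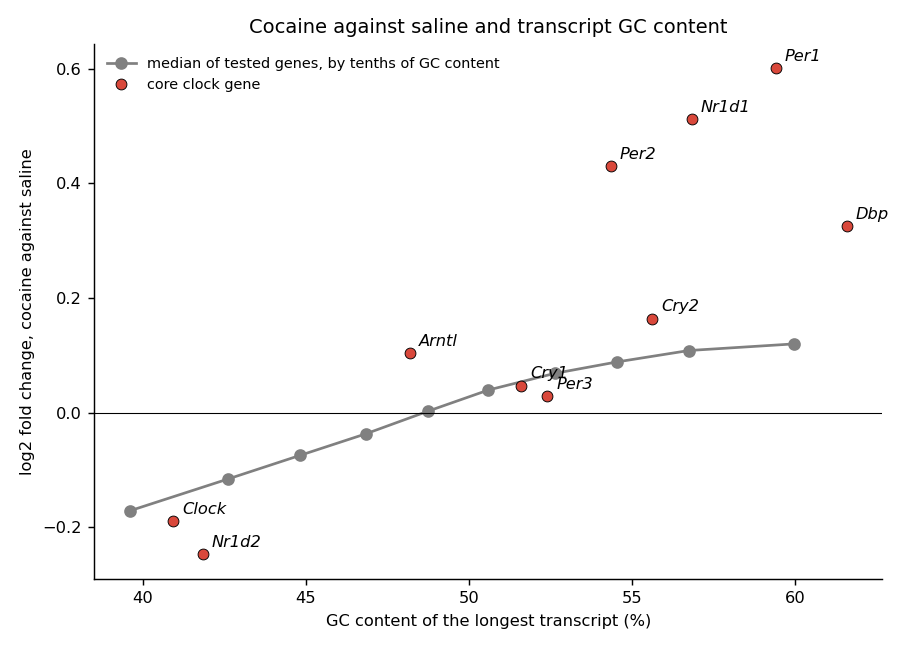
Log2 fold change of cocaine against saline, averaged over the genotype labels (y axis), against the GC content of the longest transcript in percent (x axis). Grey points are medians of tested genes split into 10 equal groups by GC content, placed at the median GC content of each group, and red points the core clock genes. Clock lies close to the grey line, and Per1, Per2 and Nr1d1 lie above it by more than the whole span of the line.

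Within the genotype labels the same 3 genes led. In control, Per1 (0.43, SE 0.11, adjusted p = 0.0131, limma), Per2 (0.29, SE 0.073, adjusted p = 0.0122) and Nr1d1 (0.49, SE 0.073, adjusted p = 0.000737) were higher by adjusted p, against 24.4% of all genes in either direction. With the fold minimum 0 of 10 were called in control, where 3.08% of all genes were, and 5 had an unadjusted p under 0.05, against 37.1%. In cKO, Per1 (0.77, SE 0.14, adjusted p = 0.00243), Per2 (0.57, SE 0.089, adjusted p = 0.00128) and Nr1d1 (0.54, SE 0.089, adjusted p = 0.00174) were called, against 3.14% of all genes. Without the fold minimum Cry2 was also higher there (0.23), and Clock (-0.28) and Nr1d2 (-0.32) were lower, against 20.2% of all genes, 10.2% higher and 9.96% lower. The cKO values rest on 2 cocaine libraries, and without the second of them Per2 alone was called. With the GC and length trends removed, Nr1d1 alone remained higher by adjusted p in control (0.40, adjusted p = 0.00296, limma), where Per1 was at 0.31 (0.0606) and Per2 at 0.20 (0.0889). In cKO, Per1, Per2 and Nr1d1 remained higher under that setting (adjusted p = 0.0131, 0.0103 and 0.0156, limma), and Cry2 (0.423), Clock (0.215) and Nr1d2 (0.15) did not pass. The share of all genes passing within a label was not computed with the trends removed. These counts therefore cannot be set against a background.

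By adjusted p no clock gene passed a comparison of the genotype labels, and few of all tested genes did. For the interaction of genotype label and treatment, 0 of 10 members passed the adjusted p in limma, against 1.28% of all genes. By unadjusted p under 0.05 there was 1 member, against 18.1% of all genes, and it was Per2 (0.28, SE 0.11, adjusted p = 0.215, limma). Between cKO and control after saline, 0 members passed by adjusted or unadjusted p in limma, against 0.178% of all genes by adjusted p, and the largest difference was -0.20 for Per1 (95% interval -0.44 to 0.04). Between the libraries labelled cKO and control after cocaine, 0 members passed either p in limma, against 0.0594% of all genes by adjusted p, and the largest difference was 0.17 for Per2 (95% interval -0.02 to 0.37). In that comparison the cKO-labelled libraries lay above the control-labelled ones without overlap for Per2 and Per3, and for 7.86% of all genes. For neither genotype comparison was the share of all genes by unadjusted p computed. By adjusted p, 0 of 10 members is near the shares of all genes. Over the 10 members the 95% intervals reached from -0.44 to 0.38 after saline and from -0.33 to 0.45 after cocaine, so that differences of this size cannot be told from none here.

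Around the core loop, 10 further clock transcription factors were tested, and 3 were higher by adjusted p and 0 lower, with a median of 0.06. Among all tested genes, 17.8% were higher by adjusted p and 15.3% lower. In 5.95% of them every cocaine library lay above every saline library. The genes named in this paragraph were chosen after their values were seen. Npas2, which can stand in for Clock as the partner of BMAL1, ran from 4.47 to 6.001 scaled TPM in the saline libraries and from 6.05 to 8.48 in the cocaine libraries without overlap (0.32, SE 0.069, adjusted p = 0.00371, limma). Ciart, an E-box-driven repressor, was higher by 0.40 (SE 0.10, adjusted p = 0.00982), and Nfil3, a repressor at D-boxes, by 0.23 (SE 0.062, adjusted p = 0.0131). With the GC and length trends removed, Npas2 and Ciart remained higher (adjusted p = 0.023 and 0.0394), Nfil3 did not pass (0.148), and Tef, a relative of Dbp, was lower (-0.14, adjusted p = 0.009). Of 9 kinases, ligase subunits and other modifiers of clock proteins, 1 was higher and 3 were lower. Csnk1e, a kinase that marks period proteins for degradation, rose without overlap from 23.4 to 25.6 in the saline libraries to 27.4 to 29.3 in the cocaine libraries (0.22, SE 0.027, adjusted p = 8.1e-05), and was at 0.10 (adjusted p = 0.0155, limma) with the GC and length trends removed. The casein kinase genes Csnk1a1 and Csnk1d went the other way. Csnk1a1 was at -0.19 (adjusted p = 0.000634, limma), and at -0.10 (0.028) with those trends removed. Csnk1d was at -0.03 (adjusted p = 0.484, limma), and at -0.13 (0.00308) with those trends removed.

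**Figure D5:**
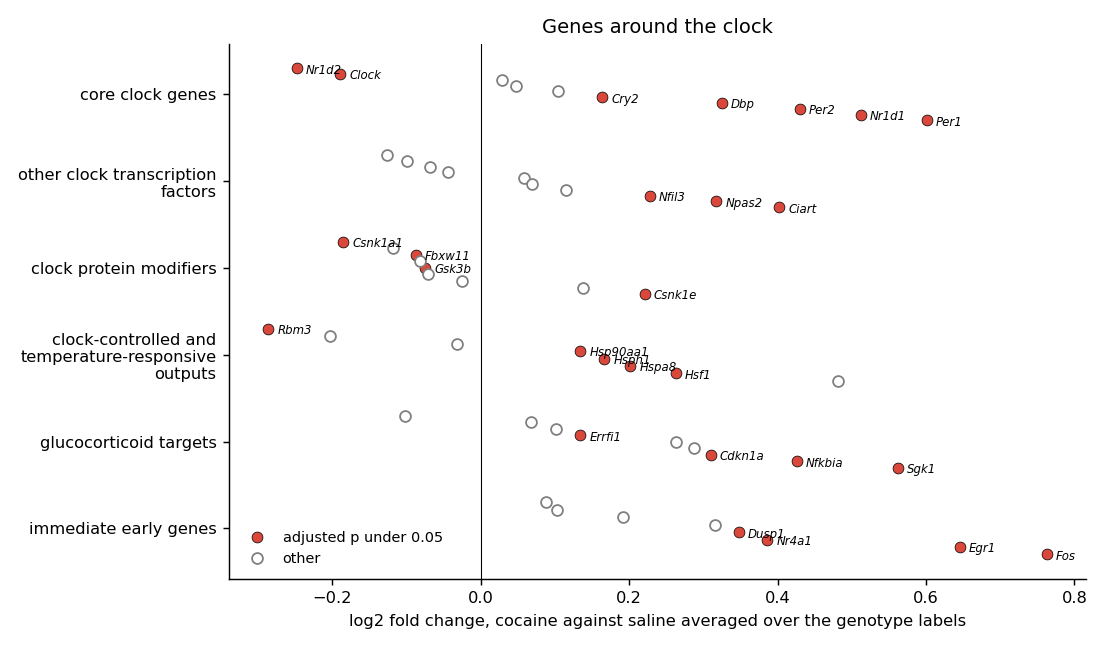
Log2 fold change of cocaine against saline averaged over the genotype labels (x axis) for the tested genes of each list (y axis), with 1 point per gene. Filled points passed an adjusted p under 0.05 and are named. The core clock genes reach from -0.25 for Nr1d2 to 0.60 for Per1, and the highest values belong to the immediate early genes Fos and Egr1.

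Lists of immediate early genes, glucocorticoid targets and clock outputs were also examined. Their relation to the clock gene results was not tested. Of 8 immediate early genes tested, 4 were higher by adjusted p and 0 lower, with a median of 0.33, where 17.8% of all tested genes were higher and the median of all was 0.01. With the GC and length trends removed, 2 were higher, against 10.8% of all genes. Egr1, a zinc finger factor induced by neuronal activity, rose without overlap from 7.45 to 9.96 scaled TPM in the saline libraries to 12.3 to 17.4 in the cocaine libraries (0.65, SE 0.082, adjusted p = 0.000104, limma). Fos, the classical activity marker, rose by 0.76 on average (SE 0.21, adjusted p = 0.0135, limma), with overlap. By label it was at 0.24 in control (adjusted p = 0.531) and 1.28 in cKO (adjusted p = 0.0153), and the difference did not pass (interaction, adjusted p = 0.209). Of 9 glucocorticoid targets 4 were higher and 0 lower, with a median of 0.26, and with the GC and length trends removed 3 were higher. Sgk1, a kinase gene induced by glucocorticoids, rose by 0.56 on average (SE 0.13, adjusted p = 0.00647, limma). It was at 0.17 in control (adjusted p = 0.492) and 0.95 in cKO (adjusted p = 0.00751), which has 2 cocaine libraries, and the interaction did not pass (adjusted p = 0.146). The targets Fkbp5 (0.10, adjusted p = 0.309) and Tsc22d3 (0.07, adjusted p = 0.278), named after their values were seen, did not pass. Of 8 clock-controlled and temperature-responsive outputs 4 were higher and 1 was lower, with a median of 0.15. Among all tested genes 15.3% were lower, and cocaine lay above saline without overlap for 5.95%.

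Markers of the dissection moved too, and their part in the clock gene results was not tested. In the averaged comparison 17.8% of all tested genes were higher by adjusted p and 15.3% lower. The 9 hypothalamus markers summed to 119 to 394 scaled TPM in control saline, 3.85 to 128 in the control-labelled cocaine libraries, 10.8 to 146 in cKO saline and 35.1 and 71.7 in the cKO-labelled ones. Of the 6 tested, 0 were higher and 2 lower: Oxt, the oxytocin gene, fell by 2.69 (SE 0.61, adjusted p = 0.00486, limma), and Gal, the galanin gene, fell by 0.53 (SE 0.19, adjusted p = 0.0453). Avp, the vasopressin gene, counted among the markers of the suprachiasmatic nucleus but also expressed in other hypothalamic nuclei, fell by 2.73 (SE 0.52, adjusted p = 0.0016). These averages combine unlike values for the genotype labels: in control Oxt was at -7.90, Gal at -1.46 and Avp at -5.08, all past the adjusted p, and in cKO they were at 2.51, 0.41 and -0.39, none of which passed (adjusted p = 0.0785, 0.342 and 0.772, limma). After saline, Oxt was at 87.7 to 182 scaled TPM in control and 0.578 to 24.4 in cKO (adjusted p = 0.0177, limma), while Avp (adjusted p = 0.0521) and Gal (adjusted p = 0.0975) did not pass. Of 8 thalamus markers 4 were higher and 0 lower, with a summed level of 465 to 622 in the saline libraries and 539 to 711 in the cocaine libraries. By label, 4 were higher and 1 lower in control, and 1 was higher and 0 lower in cKO. With the GC and length trends removed, 3 thalamus markers were higher and 0 lower when averaged. Of the 6 hypothalamus markers 3 were then lower and 0 higher, and 20.4% of all genes so tested passed in either direction. Calb2 ran from 119.7 to 135.7 scaled TPM in control saline and from 66.2 to 111.1 in the control-labelled cocaine libraries. It ran from 44.6 to 103.4 in cKO saline and from 127.7 to 128.9 in the cKO-labelled cocaine libraries. Of the habenula, choroid plexus and ependyma, and oligodendrocyte markers 0 passed by adjusted p in limma when averaged. Of the 5 astrocyte markers 2 were higher and 1 was lower, and of the 6 microglia and endothelium markers 1 was lower. Median changes of the habenula markers were -0.37 in control and 0.80 in cKO, and of the choroid plexus and ependyma markers -0.63 and 0.88. Habenula sums ran from 6.73 to 151 in the control-labelled cocaine libraries, and choroid plexus and ependyma sums from 27.5 to 1456 in control saline.

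Among 8358 tested genes with a mean of at least 5 TPM, the genes whose log2 values followed Dbp most closely over the 14 libraries were Cck (Pearson's r = 0.889), Csf1r (0.861), Kndc1 (0.848), Adap1 (0.847) and Serf2 (0.847). Those most like Arntl were Srpk1 (0.866), Spock1 (0.865), Dctn5 (0.859), Ergic1 (0.840) and Tanc2 (0.838). No core clock gene was considered for these lists, and the libraries share the treatment and GC trends described above. After group means were removed, r over the 14 libraries was 0.75 to 0.882 for the genes like Dbp and 0.812 to 0.919 for those like Arntl. The genes were picked by r over these same libraries, so these values are a description and not separate support.

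The promoter letters describe which members hold an exact match to the letters searched. Windows of 250 bases before a start were found for 9 of the 10 members (13 windows, RefSeq, GRCm38.p6) and Per2 was not among them. Both strands were searched for the E-box CACGTG, the E-prime box CACGTT, the D-box TTATGTAA or TTACGTAA, the ROR element TAGGTCA, the cyclic AMP response element TGACGTCA and its core TGACG, which the longer element contains. An E-box matched in start 1 of Per1 and in Cry1, and in 6.021% of all 32851 windows. The E-prime box matched in Cry1, Cry2 and Nr1d1 (3.848% of all windows), the D-box in Per3 (0.931%) and the TGACG core in both Per1 windows, Cry1 and Cry2 (17.765%). The ROR element and the full cyclic AMP response element matched in none of the 13 windows (2.234% and 1.546% of all). Other forms of an element, and sites outside these 250 bases, were not searched. The lack of a match therefore does not mean that a gene lacks the element.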

How the data were processed

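Ribosomal RNA-depleted RNA was prepared with a directional kit. By the study's methods and the submitters' processing notes, the authors mapped reads with STAR 2.5.3a to GRCm38.p4 (mm10), quantified them with salmon and tximport, and deposited TPM per library. In 2 deposited tables (unit recorded as other) a decimal comma was read as a point, so these are TPM too. Depth is unknown, and p-values measure the spread between these samples.

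TPM were divided by unweighted TMM factors (trims 30% and 5%), 0.5 was added and log2 was taken, the scale of all fold changes. The 13471 genes reaching 1 TPM in 3 libraries or more entered limma 3.58.1 (R 4.3.3), as a means model of 4 title groups with an intensity trend and Benjamini-Hochberg adjustment over all genes. Named genes are Maged1, the members, genes called in other lists (at most 6 a list) and the 5 genes most like Dbp and Arntl. Other genes are named for an overlap in the annotation (Thra, Sphk2), as markers (Slc17a6 and those of the suprachiasmatic nucleus) or after their values were seen. Members and lists were chosen with earlier results of these data known. GC content, length and overlaps came from GENCODE M21 (97.9% of tested genes), with loess trends (span 0.3) removed per library as an alternative. Other alternatives were scalings, pseudocounts, filters, genotype tags, a replicate block, no trend, compared groups alone, no fold minimum and each library left out. The procedure was tested on simulated data.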

Additional observations from a re-analysis of the deposited data

Results flagged for a closer look

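Among 51 groups of 4 libraries examined for 17 genes (Maged1, the 10 clock genes, Sgk1, Fos, Egr1, Avp, Oxt and Gal), 4 held a library far from the other 3, and chance flags about 1 in 20 groups. Arntl in control saline was at 6.471 scaled TPM in replicate 1, compared with 7.508 to 7.643 in the others, and this library also had the lowest value of 5 other clock genes in its group. Avp was at 2.118 in replicate 3 of the libraries labelled control cocaine, where the others ran from 0.4668 to 0.7309. Oxt was at 24.38 in cKO saline replicate 3, where the others ran from 0.5784 to 2.575, and at 0.2329 in replicate 3 of the libraries labelled control cocaine, where the others were listed at 0.

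No clock gene passed the test of the interaction of genotype label and treatment, but 4 of the other 7 genes did. With the labels of the cocaine groups exchanged, this test would compare genotypes and not responses to cocaine. The interaction of genotype label and treatment was 2.28 (log2) for Maged1 (SE 0.16, adjusted p = 5.53e-05, limma), which is the reversal of its level against the labels. It was 4.69 for Avp (SE 1.03, adjusted p = 0.0479), 10.41 for Oxt (SE 1.22, adjusted p = 0.00303) and 1.88 for Gal (SE 0.37, adjusted p = 0.0392), 3 genes of the neighbouring hypothalamus. For Oxt, 3 libraries were listed at 0, so its fitted value depends on the 0.5 that was added.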

How the results depend on the processing

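The direction of Per1, Per2, Nr1d1, Clock and Nr1d2 in the averaged comparison was kept under all alternatives run. Per1 kept its adjusted p under 0.05 in 27 of 27, and Per2 (25 of 26) and Nr1d1 (26 of 27) lost it only in the TPM as deposited (0.0975 and 0.1352). In the TPM as deposited the estimates turned for Per3 (-0.3189), Cry1 (-0.3043), Cry2 (-0.2118), Arntl (-0.2551) and Dbp (-0.0526), where the median gene was itself at -0.3351. With GC content and length trends removed, Per3 (-0.0486) and Cry1 (-0.0113) turned. Cry1 turned (-0.0093) with the 10 libraries whose title and tag agree, and Per3 without cKO saline replicate 1 (range -0.0029 to 0.0617 over the libraries left out). The cause was not tested. In the TPM as deposited 2 members were again called, but different ones (Clock and Nr1d2, lower), where 2290 of all tested genes were called lower and 56 higher. Members called in the averaged comparison (2) became 1 with quantile normalization, 7 with no fold minimum and 0 with GC content and length trends removed. In control (0) they became 1 with TPM as deposited (Nr1d2, lower, as were 2372 of all tested genes), 1 with genotype tags (Per1), 1 with the 10 agreeing libraries (Nr1d1) and 3 with no fold minimum. In cKO (3) they became 6 with no fold minimum and 1 with GC content and length trends removed (Per1). The share of all genes under the latter setting was computed for the averaged comparison only. Leaving out 1 library at a time, the counts ran from 1 to 2 (averaged), 0 to 1 (control) and 1 to 3 (cKO). The averaged count fell to 1, with Nr1d1 under the fold minimum, without control saline replicate 1, control cocaine replicate 4, cKO saline replicate 4 or cKO cocaine replicate 2. The control count rose to 1 without control saline replicate 3 or 4 or control cocaine replicate 1 or 2 (Nr1d1) or control cocaine replicate 3 (Per1), and the cKO count fell to 1 (Per2) without cKO cocaine replicate 2. The counts of 0 for the interaction and between genotypes stayed 0 in all alternatives. The limb difference (0.275) became 0.155 with Npas2 added, 0.1282 against Arntl alone and 0.1284 with GC content and length trends removed, and ran from 0.2456 to 0.2982 with each library left out. Same-numbered libraries of different groups did not deviate together (mean r -0.0138, 18 pairs). With a replicate block the counts stayed 2, 0 and 3, and Dbp lost its call (0.3574, adjusted p = 0.0669, limma).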
